A study of Mus musculus with 54 samples.

Results

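The genes described are 7 subunits of the GABA-A receptor, 4 of the alpha class (*Gabra2*, *Gabra3*, *Gabra4*, *Gabra5*), 2 of the beta class (*Gabrb1*, *Gabrb2*) and 1 of the gamma class (*Gabrg1*), and the question is how their levels and their mix varied over the day in the mouse suprachiasmatic nucleus (SCN), the master clock of the mammalian brain. They were chosen by symbol, as the rows of the read count table whose Ensembl identifiers carry these 7 names, out of 30031 genes in that table. RNA came from male C3H/HeH mice aged 10 to 12 weeks, kept in 12 hr light and 12 hr dark, which the column headers of the tables mark WT (wild type), and no treatment is labelled. The SCN was cut out by laser-capture microdissection at 6 zeitgeber times (ZT, hours after lights on), ZT2, ZT6 and ZT10 in the light and ZT14, ZT18 and ZT22 in the dark. Each timepoint has 3 replicates (A, B and C), each a pool of 5 mice and each listed as 3 technical replicates, which makes 54 samples and 18 replicates.

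The GABA-A receptor is a chloride channel of 5 subunits opened by GABA, the transmitter used by most SCN neurons. A typical receptor combines alpha, beta and gamma or delta subunits. GABA binds between alpha and beta subunits, and benzodiazepines bind between an alpha and the gamma subunit. The alpha class largely sets where on the neuron a receptor sits and how strongly it responds to GABA: alpha 4, usually with delta, and alpha 5 are known for receptors outside the synapse, and alpha 2 and alpha 3 for synaptic ones.

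Gene counts of a replicate summed to between 15412981 and 35820945 reads (median 25075231), lowest in ZT18 replicate C and highest in ZT14 replicate A. All 7 genes passed the filter on low counts (at least 1 read in more than 6 replicates), as did 18941 genes of the whole table. Levels are given as CPM, counts per 1000000 reads of a library size adjusted by edgeR's TMM normalization, and mean ± SD refers to n = 3 replicates. In a principal component analysis of the 500 most variable genes the libraries lay in pairs of timepoints (late night and early morning at ZT22 and ZT2, ZT6 beside ZT10, and ZT14 beside ZT18): the median distance was 10.4 between replicates of 1 timepoint, 12.5 between the timepoints of a pair and 61.1 between pairs. The study's plot of its libraries names timepoint and sequencing batch in its legend, and which library belongs to which batch is not given in the sources used here. The part of batch in differences between the pairs was therefore not tested, and the comparisons inside a pair (ZT6 to ZT10, ZT14 to ZT18 and ZT22 to ZT2) are given beside the others. Replicate C of ZT6 and replicate C of ZT18 stood farthest from the other replicates of their timepoints, with a mean chi-square per gene between 111 and 148 against 33.3 to 103 for the other 14 pairs. The label of the tissue was checked with marker genes: *Vip*, a peptide of SCN neurons, had between 747 and 3230 CPM. Of 7 peptides of other hypothalamic neurons, *Crh*, *Hcrt*, *Pmch* and *Agrp* stayed at or below 3.31 CPM, whereas *Trh*, *Oxt* and *Pomc* reached 69.0, 26.5 and 20.3 CPM.

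In the genome (GRCm38), 4 of the genes lie in a cluster on chromosome 5. *Gabrg1* (chr5:70751047-70842617), *Gabra2* (chr5:70957597-71095849) and *Gabra4* (chr5:71569749-71658308) are on the minus strand, and *Gabrb1* (chr5:71658113-72149037) is on the plus strand, head to head with *Gabra4*. The gene models of *Gabra4* and *Gabrb1* overlap by 196 bases, 46 of them in exons of both, and whether the counting used the strand is not given in the sources used here, so reads on those bases could belong to either. The other 3 genes lie apart, *Gabra5* at chr7:57407672-57510059 (minus strand), *Gabrb2* at chr11:42419757-42629028 (plus strand) and *Gabra3* at chrX:72432681-72656848 (minus strand). The files' identifiers are ENSMUSG00000000560 (*Gabra2*), ENSMUSG00000031343 (*Gabra3*), ENSMUSG00000029211 (*Gabra4*), ENSMUSG00000055078 (*Gabra5*), ENSMUSG00000029212 (*Gabrb1*), ENSMUSG00000007653 (*Gabrb2*) and ENSMUSG00000001260 (*Gabrg1*). *Gabra5* shares 148 exonic bases with the antisense gene *Gm9962*. The stretches before the start sites of 4 genes are shown because *Gabra4* and *Gabrb2* moved together although they lie on different chromosomes, and *Gabrb1* moved against *Gabra2* although they lie in 1 cluster. All are from RefSeq on GRCm38.p6, written 5′ to 3′ on the gene's strand: *Gabra2* chr5:71095850-71096099 (minus), *Gabra4* chr5:71658364-71658558 (minus, without the 55 bases nearest the start, which are exonic in *Gabrb1*), *Gabrb1* chr5:71699682-71699931 (plus, before the downstream of its 2 start sites) and *Gabrb2* chr11:42420190-42420439 (plus, before the most upstream of its 3 start sites). Capitals mark a match to CACGTT.
Gabra2: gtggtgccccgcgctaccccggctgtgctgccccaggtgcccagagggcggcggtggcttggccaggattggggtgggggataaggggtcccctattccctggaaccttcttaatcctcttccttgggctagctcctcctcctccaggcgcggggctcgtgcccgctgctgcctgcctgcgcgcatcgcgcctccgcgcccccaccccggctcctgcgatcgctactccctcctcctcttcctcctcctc
Gabra4: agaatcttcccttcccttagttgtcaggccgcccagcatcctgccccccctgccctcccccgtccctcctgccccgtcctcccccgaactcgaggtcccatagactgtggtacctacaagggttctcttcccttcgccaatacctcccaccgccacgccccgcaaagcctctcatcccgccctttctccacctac
Gabrb1: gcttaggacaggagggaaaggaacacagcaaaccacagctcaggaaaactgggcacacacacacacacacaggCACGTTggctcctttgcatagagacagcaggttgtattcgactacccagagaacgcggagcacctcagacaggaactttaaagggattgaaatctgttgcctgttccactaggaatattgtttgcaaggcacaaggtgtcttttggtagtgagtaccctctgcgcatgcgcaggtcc
Gabrb2: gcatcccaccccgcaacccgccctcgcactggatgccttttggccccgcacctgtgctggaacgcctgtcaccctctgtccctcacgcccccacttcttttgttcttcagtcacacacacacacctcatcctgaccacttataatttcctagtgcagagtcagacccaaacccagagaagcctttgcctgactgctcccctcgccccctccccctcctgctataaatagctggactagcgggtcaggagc

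These windows of 300 bases (250 before to 50 after each RefSeq start site), 11 for the 7 genes, all of which matched by symbol, were searched on both strands for letters bound by clock factors: the E-box CACGTG, the related CACGTT, the D-box as TTATGTAA or TTACGTAA, AGGTCA, which is the core of the element bound by nuclear receptors of the ROR and REV-ERB families, and the cyclic AMP response element TGACGTCA. CACGTT occurred before both start sites of *Gabrb1*, and none of these letters occurred in the windows of the other 6 genes. Of all 32851 windows in the RefSeq table, 4.68% held CACGTT, 7.15% CACGTG, 1.06% a D-box, 16.3% AGGTCA and 1.79% TGACGTCA. GC content of the full windows of 300 bases that hold the shorter stretches shown was 70.0% for *Gabra2*, 59.0% for *Gabrb2*, 58.7% for *Gabra4* and 50.3% for *Gabrb1*. The median was 52.7% over all windows.

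Levels differed among the 6 timepoints for 5 of the 7 genes, *Gabra2*, *Gabra4*, *Gabrb1*, *Gabrb2* and *Gabrg1* (edgeR's quasi-likelihood F-test, Benjamini-Hochberg adjustment over all genes tested, threshold 0.05). In the same test 44% of all genes tested were called. *Gabra3* (adjusted p = 0.053) and *Gabra5* (adjusted p = 0.0693) did not pass. Both passed without replicate C of ZT6 and of ZT18 (adjusted p = 0.000427 and 0.0472 by edgeR). These replicates were picked after seeing the data, for standing farthest from their timepoints, so leaving them out gives no separate support. The ratio of the highest to the lowest timepoint mean was 9.61 for *Gabrb2*, 5.01 for *Gabra4*, 4.32 for *Gabra2*, 3.89 for *Gabrb1*, 3.12 for *Gabra3*, 2.63 for *Gabrg1* and 2.30 for *Gabra5*. Those of *Gabrb2* and *Gabra4* moved with the replicates of ZT6, to 15.8 and 7.81 without replicate A and to 6.46 and 3.82 without replicate C. Of the 5 called genes, 4 also passed JTK_CYCLE, a rank test for a 24 hr rhythm, and so counted as cycling: *Gabrb1* (p = 0.0004 by its exact null, peak ZT14), *Gabrg1* (0.00672, ZT2), *Gabra2* (0.00942, ZT22) and *Gabra4* (0.013, ZT18). These are 4 of the 7 genes, against 29.9% of all genes tested. Of the 8343 genes called in the time test over the whole table, 5670 counted as cycling. *Gabrb2* passed the time test but not JTK_CYCLE (p = 0.115 by its exact null).

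**Figure D1:**
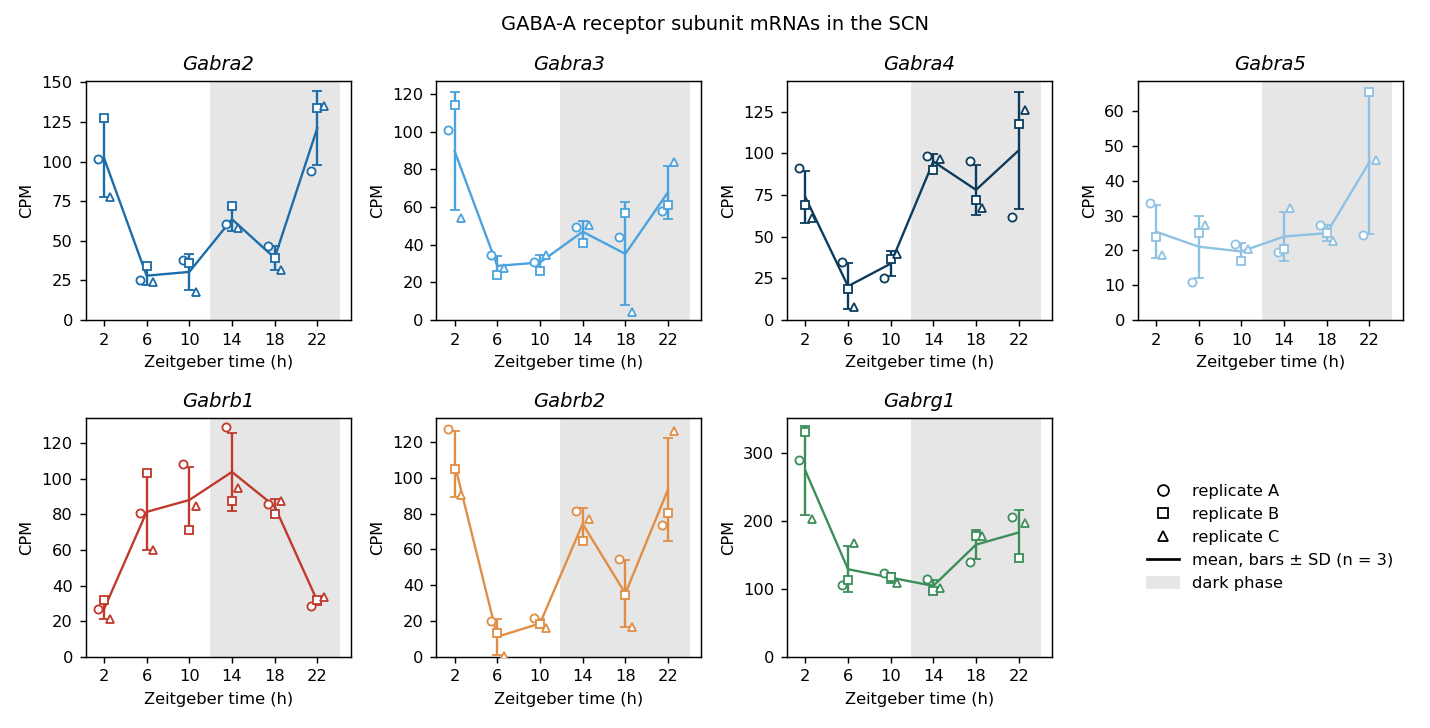
CPM of the 7 subunit genes (vertical axes, from 0) at each zeitgeber time in hours (horizontal axes). Open symbols are replicates A, B and C, lines join timepoint means, bars are ± SD (n = 3), and grey marks the dark phase. *Gabrb1* is lowest at ZT22 and ZT2, where *Gabra2*, *Gabra3*, *Gabrb2* and *Gabrg1* have their highest means.

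Among the alpha subunits, *Gabra2* encodes the alpha 2 subunit, found mainly in synaptic receptors. Its CPM in replicates A, B and C was 102, 127 and 77.7 at ZT2, and 94.2, 134 and 135 at ZT22. It was 25.4, 34.4 and 24.2 at ZT6 and 37.7, 35.9 and 17.5 at ZT10. All 6 replicates at ZT22 and ZT2 lay above all 12 at the other timepoints. In the dark, values were 60.6, 72.2 and 58.1 at ZT14 and 46.8, 39.1 and 31.8 at ZT18, with no overlap between these timepoints. The time test gave an adjusted p of 9.16e-06 (edgeR).

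*Gabra4* encodes alpha 4, which often pairs with delta outside the synapse. Its CPM was 34.9, 18.5 and 7.62 at ZT6 and 25.4, 36.8 and 39.4 at ZT10. All other replicates were higher, with 98.4, 90.2 and 97.0 at ZT14, 95.5, 71.9 and 67.1 at ZT18, 61.6, 118 and 126 at ZT22 and 91.1, 68.9 and 61.3 at ZT2. The low value in replicate C of ZT6 rests on 161 reads. The gene was thus low only in the middle and late light phase among these timepoints (time test, adjusted p = 0.000615 by edgeR).

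*Gabra3* encodes alpha 3. Its CPM was 101, 114 and 54.2 at ZT2, 58.1, 61.3 and 84.1 at ZT22, and 49.5, 40.7 and 50.6 at ZT14. It was 34.7, 24.01 and 27.6 at ZT6 and 30.7, 26.3 and 34.7 at ZT10. At ZT18 the replicates held 44.1, 56.9 and 4.45 CPM, the last from 73 reads. Replicate C of ZT18 was below every other replicate of the series for this gene, and all 6 replicates at ZT6 and ZT10 lay below the 9 at ZT14, ZT22 and ZT2. *Gabra5* encodes alpha 5, the alpha subunit best known from hippocampal receptors outside the synapse. It was between 10.9 and 33.7 CPM in every replicate outside ZT22. At ZT22 its replicates held 24.5, 65.5 and 46.0 CPM, so that replicates B and C were the highest of the series and replicate A was not.

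The beta subunits had unlike profiles. *Gabrb1* (beta 1) had 26.7, 31.9 and 21.4 CPM at ZT2 and 28.6, 32.0 and 33.4 at ZT22. It had 129, 87.7 and 94.9 at ZT14, 108, 71.2 and 84.9 at ZT10, 86.1, 80.1 and 87.4 at ZT18 and 80.8, 103 and 60.04 at ZT6. These 6 low and 12 high replicates did not overlap (time test, adjusted p = 4.3e-06 by edgeR). *Gabrb2* (beta 2, a beta subunit found widely in the brain) had 127, 105.1 and 90.4 CPM at ZT2, 73.8, 80.4 and 126 at ZT22 and 81.5, 64.6 and 76.8 at ZT14. It had 54.7, 34.5 and 16.8 at ZT18, 21.4, 18.1 and 16.2 at ZT10, and 19.99, 13.3 and 0.284 at ZT6, the last from 6 reads. Every replicate at ZT2, ZT22 and ZT14 was above all replicates of ZT6, ZT10 and ZT18 (time test, adjusted p = 0.0043 by edgeR). Of the 7 genes, *Gabrb2* had the highest ratio between its highest and lowest timepoint means, and leaving out any single replicate kept its time test call.

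*Gabrg1* encodes gamma 1, a gamma subunit with a narrow distribution in the brain that includes the hypothalamus. Its CPM was 289.5, 330.1 and 202 at ZT2, 206, 145 and 197 at ZT22 and 140.1, 178 and 177 at ZT18. It was 114, 96.8 and 102 at ZT14, 123, 117 and 109 at ZT10, and 106, 113 and 168 at ZT6. The gene was higher at ZT18 than at ZT14 in all replicates (time test, adjusted p = 0.000194 by edgeR). Its lowest mean was at ZT14, where replicates overlapped those of ZT6 and ZT10.

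Between neighbouring timepoints, the steps that passed edgeR's test all lay between the pairs of timepoints described above. From ZT2 to ZT6, 5 genes fell, against 16.3% of all genes, and 1 rose, against 17.5%. The falls, as log2 differences of CPM with SE, were -3.26 ± 0.73 for *Gabrb2* (adjusted p = 0.002 by edgeR), -1.87 ± 0.28 for *Gabra2* (5.4e-05), -1.86 ± 0.39 for *Gabra4* (0.00122), -1.64 ± 0.53 for *Gabra3* (0.0227) and -1.09 ± 0.21 for *Gabrg1* (0.0006). *Gabrb1* rose by 1.61 ± 0.23 (3e-05), and *Gabra5* did not pass (-0.27 ± 0.36). The call for *Gabra3* was lost in 4 of the 18 fits that left out a replicate (ZT2 replicate A or B, ZT6 replicate B or C).

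From ZT10 to ZT14, across lights off, *Gabra4* rose by 1.49 ± 0.38 (adjusted p = 0.0121 by edgeR) and *Gabra2* by 1.07 ± 0.27 (0.0113), 2 of 7 genes against 9.31% of all genes. *Gabrb2* had 2.00 ± 0.69 (0.0557), which passed without replicate C of ZT6 and of ZT18 (3.7e-05). That exclusion was chosen after seeing the data and left the log2 difference at 2.00. The call for *Gabra4* was lost without ZT10 replicate A and that for *Gabra2* without ZT10 replicate C. From ZT18 to ZT22, *Gabra2* rose by 1.63 ± 0.27 (0.000409), 1 of 7 genes against 6.27% of all genes rising, and *Gabrb1* changed by -1.43 ± 0.22 (0.000204), 1 of 7 against 11.9% of all genes falling.

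**Figure D2:**
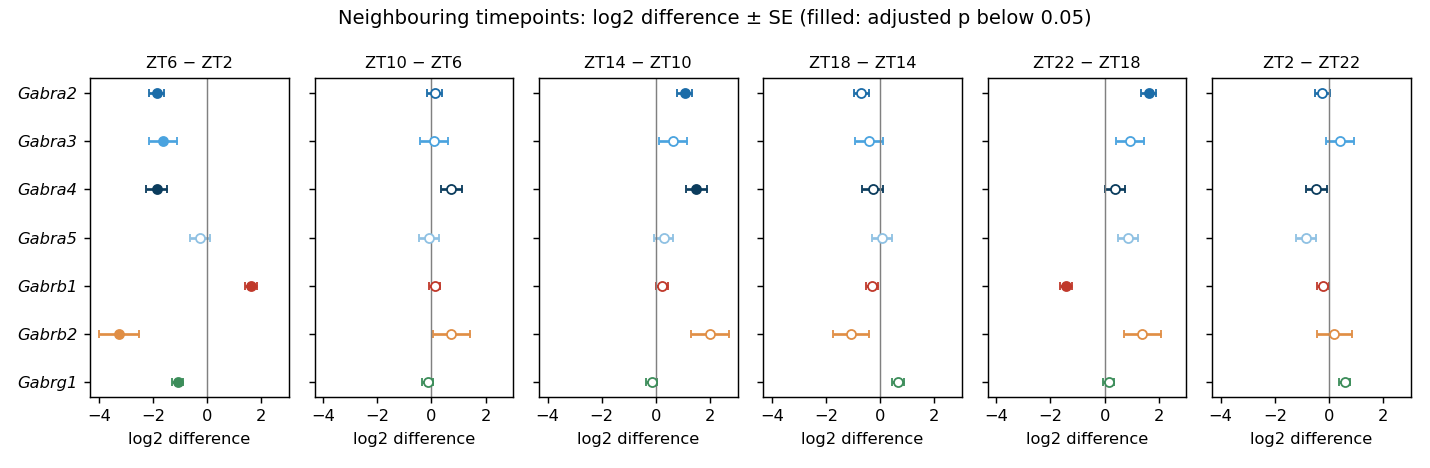
Log2 difference of CPM between neighbouring timepoints (horizontal axes) with SE bars for the 7 genes (rows), from the edgeR fit. Filled symbols have an adjusted p below 0.05. Filled symbols appear only for ZT6 minus ZT2 (6 genes), ZT14 minus ZT10 (2 genes) and ZT22 minus ZT18 (2 genes), and *Gabrb1* lies on the side opposite to *Gabra2* in the first and last of these.

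Inside the pairs of timepoints no gene passed edgeR's test. From ZT6 to ZT10, 0 of 7 genes were called (0.0475% of all genes), none had an unadjusted p under 0.05 and DESeq2 called 0. From ZT14 to ZT18, 0 of 7 were called (0.57% of all genes), *Gabra2* (-0.70 ± 0.27) and *Gabrg1* (0.66 ± 0.21) had an unadjusted p under 0.05, and DESeq2 called 1, *Gabrg1* (0.70, adjusted p = 0.0445). From ZT22 to ZT2, 0 of 7 were called (0.0317% of all genes), *Gabra5* (-0.84 ± 0.36) and *Gabrg1* (0.58 ± 0.21) had an unadjusted p under 0.05, and DESeq2 called 0. The shares of all genes in these comparisons are those of edgeR, and the shares called by DESeq2 are not given. Of the variance of a gene's 6 timepoint means, the part between the pairs was 97.9% for *Gabrb1*, 93.1% for *Gabra2*, 88.2% for *Gabra4*, 81.4% for *Gabrb2*, 78.3% for *Gabra3*, 69.7% for *Gabrg1* and 63.4% for *Gabra5*. The median was 77.2% over all genes and 90.3% over the genes called in the time test.

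The mean of the 3 timepoints in the light was compared with the mean of the 3 in the dark. Lower values in the light passed the test for *Gabra4* (log2 difference of -1.30 ± 0.22, adjusted p = 0.00042 by edgeR), *Gabrb2* (-1.15 ± 0.39, 0.0397) and *Gabra2* (-0.60 ± 0.16, 0.00969), 3 of 7 genes against 14.3% of all genes. No gene of the 7 passed with higher values in the light, against 9.56% of all genes. The call for *Gabrb2* was lost in 14 of the 18 fits that left out a replicate, and with DESeq2 (adjusted p = 0.062) and upper-quartile normalization, while those for *Gabra4* and *Gabra2* were kept in all of these. *Gabrb1* (-0.17 ± 0.13) and *Gabrg1* (0.13 ± 0.12), whose levels changed over time, did not pass this test, and their high and low timepoints fell in both phases. These comparisons share libraries with those between neighbouring timepoints. The study describes genes that are high at both ZT14 and ZT22, so these 2 timepoints were compared with ZT18 and ZT2, and 0 of 7 genes were called by edgeR (0.148% of all genes). The study defined its group otherwise, by coexpression and a test over all timepoints. This comparison leaves out ZT6 and ZT10, so it cannot show whether the 7 genes belong to that group. *Gabrg1* (-0.62 ± 0.15, adjusted p = 0.0782) and *Gabra2* (0.47 ± 0.19) had an unadjusted p under 0.05, and DESeq2 called 1, *Gabrg1* (-0.66, adjusted p = 0.00521). The share of all genes given here is that of edgeR, and the share called by DESeq2 is not given.

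Levels of different subunits were set side by side as CPM per kilobase of annotated exon, which assumes that reads cover these exons evenly in RNA that was amplified from about a nanogram. At ZT2 *Gabrg1* was highest (34.8 ± 8.3 CPM per kb) and *Gabrb1* lowest (1.93 ± 0.38), and *Gabra3* (22.8 ± 8.0), *Gabrb2* (16.9 ± 2.9), *Gabra2* (13.4 ± 3.3), *Gabra4* (12.1 ± 2.5) and *Gabra5* (8.53 ± 2.57) lay between them. Replicates of neighbours in that order overlapped except between *Gabra5* and *Gabrb1*. At ZT6 *Gabrg1* was again highest (16.4 ± 4.3), followed by *Gabra3* (7.33 ± 1.39), *Gabra5* (7.08 ± 2.99), *Gabrb1* (5.88 ± 1.56), *Gabra2* (3.67 ± 0.73), *Gabra4* (3.34 ± 2.26) and *Gabrb2* (1.76 ± 1.58). Replicates of neighbours overlapped except between *Gabrg1* and *Gabra3*. *Gabrb2* was thus last of the 7 at ZT6, where *Gabrb1*, last at ZT2, had passed it. At ZT14 *Gabra4* was highest (15.6 ± 0.7) and apart from *Gabrg1* (13.3 ± 1.1), the only timepoint at which *Gabrg1* did not lead these 7 genes. That order rests on the exon lengths used. In CPM without length, *Gabrg1* had 104.3 ± 9.0 and *Gabra4* 95.2 ± 4.4 at ZT14.

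The share of *Gabrb1* in the sum of *Gabrb1* and *Gabrb2* (per kb) was 80.7% ± 17.1 at ZT6 and 68.3% ± 3.4 at ZT10 (SD, n = 3). It was 54.7% ± 14.5 at ZT18 and 38.9% ± 3.0 at ZT14, and only 13.8% ± 2.6 at ZT22 and 10.3% ± 1.8 at ZT2. Single replicates ranged from 8.81% at ZT2 to 98.98% in replicate C of ZT6, where *Gabrb2* had 6 reads. The 6 timepoints differed in an exact permutation test over all 190590400 partitions of the replicates (two-sided, p = 6.475e-06, adjusted p = 7.77e-05 over the 12 tests of the mix). Leaving out any replicate left the difference between the highest and lowest timepoint between 61.3 and 78.3 percentage points. With all subunit genes of a class in the sum, the difference over time was 22.9 points, with the highest share at ZT18 (27.5% ± 1.2), and passed as well (exact, adjusted p = 0.000751). Light against dark did not pass for the share in *Gabrb1* plus *Gabrb2* (17.3 points, adjusted p = 0.2424, exact) or in all genes of the class (0.54 points, adjusted p = 0.9405, exact).

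Among the 4 alpha genes, the share of *Gabra4* was 35.6% ± 1.8 at ZT14 and 37.6% ± 8.2 at ZT18 and between 15.5% ± 10.4 (ZT6) and 25.3% ± 2.7 (ZT22) at the other timepoints. It differed over time (exact permutation test, adjusted p = 0.01501) and was 12.7 percentage points lower in the light (-12.7, exact, adjusted p = 0.008392). The share of *Gabra3* was 39.4% ± 5.2 at ZT2 and 22.6% ± 16.2 at ZT18, and it was 9.69 points higher in the light (exact, adjusted p = 0.01599), while its test over time did not pass (adjusted p = 0.2424). *Gabra2* held 24.7% ± 2.1 at ZT22, 23.8% ± 2.9 at ZT2 and 14.9% ± 2.3 at ZT18 (exact test over time, adjusted p = 0.05392). *Gabra5* held between 15.1% ± 2.6 (ZT2) and 33.2% ± 14.4 (ZT6), with no test passed (exact, adjusted p = 0.1335 over time and 0.4671 for light against dark).

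The log2 ratio of *Gabrg1* to the sum of the 4 alpha genes was -1.73 ± 0.15 at ZT14 and -1.47 ± 0.62 at ZT22, and between -0.72 ± 0.58 (ZT18) and -0.42 ± 0.40 (ZT6) at the other timepoints. It differed over time (exact permutation test, adjusted p = 0.022) and was 0.70 higher in the light (exact, adjusted p = 0.01599). The test over time was lost without ZT14 replicate B, ZT14 replicate C or ZT22 replicate C (adjusted p between 0.0503 and 0.05855). The highest and lowest single values were those of replicate C of ZT6 (0.04) and replicate B of ZT22 (-2.02).

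**Figure D3:**
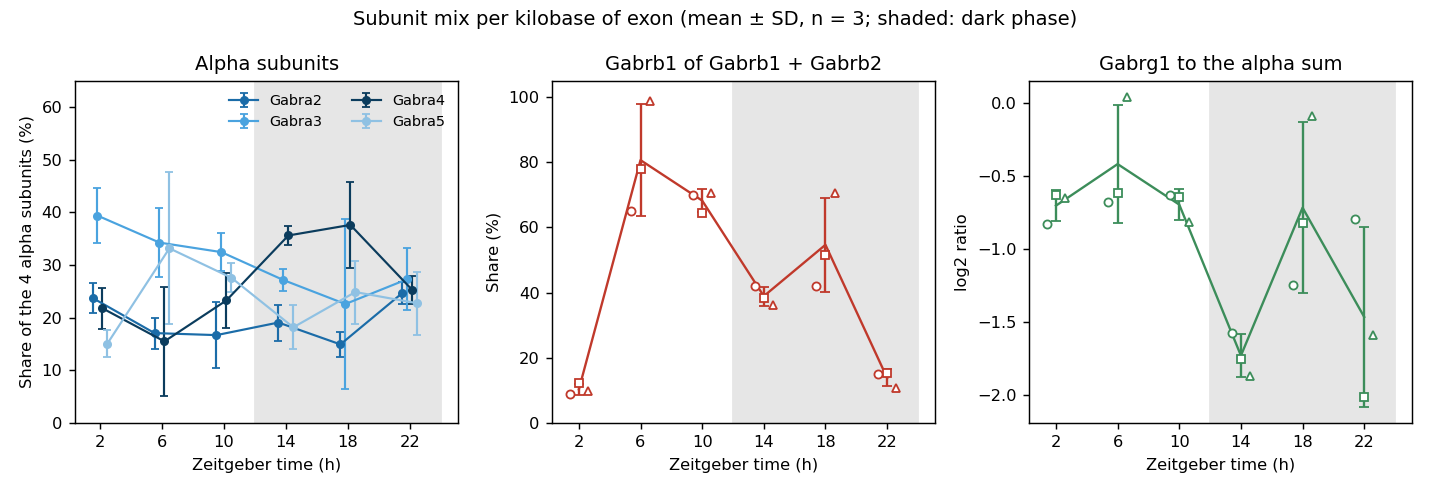
Left, share of each of 4 alpha genes in their sum (percent, mean ± SD, n = 3). Middle, share of *Gabrb1* in *Gabrb1* plus *Gabrb2* (percent), and right, log2 ratio of *Gabrg1* to the alpha sum, both with replicates as open symbols (circle A, square B, triangle C). Values are per kilobase of exon at each zeitgeber time in hours, and grey marks the dark phase. The *Gabrb1* share is 10.3% at ZT2 and 80.7% at ZT6.

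The genes were compared with each other by Pearson's r of log2 CPM over the 18 replicates, as a description, since these replicates share timepoints. The highest of the 21 values was that of *Gabra4* and *Gabrb2* (0.89), and it was 0.82 within timepoints (after subtraction of timepoint means). The lowest was that of *Gabrb1* and *Gabrg1* (-0.77), which was 0.05 within timepoints, and *Gabrb1* had a negative r with all 6 other genes, but a positive one with all 6 within timepoints. Without replicate C of ZT6 and of ZT18 (16 replicates), *Gabra4* and *Gabrb2* had 0.86, and 0.61 within timepoints, *Gabra2* and *Gabrb2* had the highest r (0.89), and *Gabrb1* stayed negative with the 6 others but was positive with only 5 within timepoints (-0.10 with *Gabra4*). The 6 pairs on chromosome 5 ranged from -0.77 to 0.68 with 3 negative values, and the 15 other pairs from -0.54 to 0.89 with 3 negative values.

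**Figure D4:**
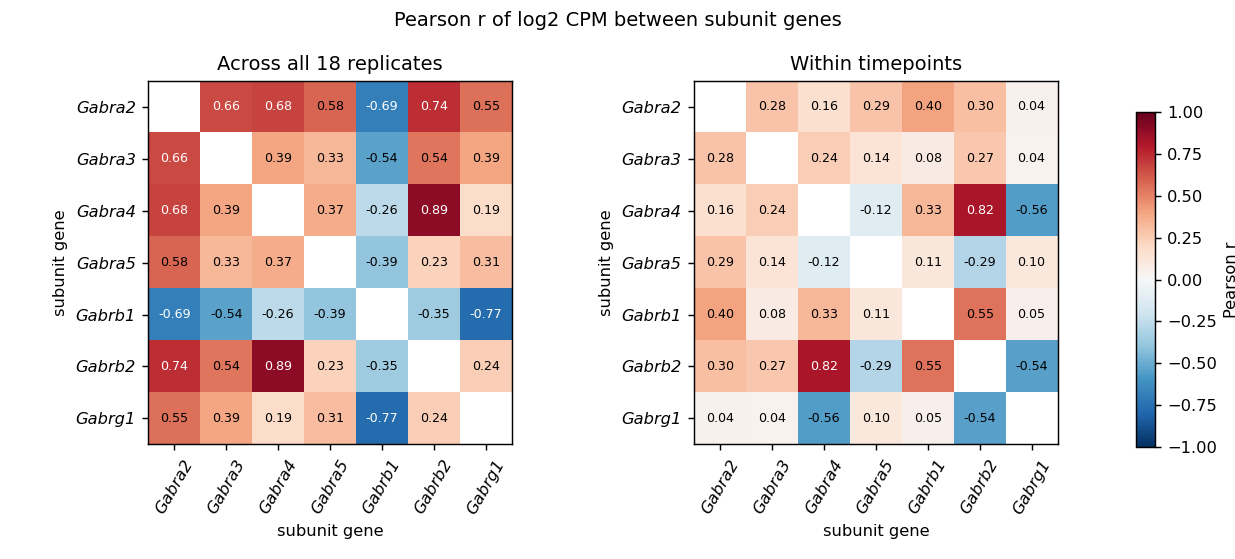
Pearson's r of log2 CPM between pairs of the 7 genes (rows and columns), across all 18 replicates (left) and within timepoints (right), with the colour scale from -1 to 1. *Gabrb1* is negative with every other gene on the left, and *Gabra4* with *Gabrb2* is the highest pair in both panels (0.89 and 0.82).

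Likeness was searched among 15752 genes that averaged 10 counts or more. The gene most like *Gabrb1* over the 18 replicates was *Flywch1* (r = 0.97), followed by *Snrpa* (0.97) and *Gm4342* (0.96). The most like *Gabrb2* were *Gm8181* (0.97), *Scn2b* (0.97), a sodium channel subunit, and *Gm5828* (0.97). *Gabra2* was most like *Atp6ap1* (0.96), *Naa25* (0.96) and *Gm12201* (0.96), *Gabra4* most like *Gfod1* (0.96), *Glns-ps1* (0.95) and *Prkcz* (0.95), and *Gabra3* most like *Slco1a4* (0.97), *Ap1g1* (0.97) and *Zfp141* (0.96). *Slco1a4* is also on the list of endothelial markers used here. With the sum of that list *Gabra3* had an r of 0.28, and 0.17 within timepoints. Without replicate C of ZT6 and of ZT18 it was 0.36, and 0.65 within timepoints. *Gabrg1* was most like *Thsd7b* (0.93), *Synpr* (0.92) and *Eif2s3x* (0.91), and *Gabra5* had the weakest matches, *Nfib* (0.81), *Ppm1e* (0.79) and *Btbd3* (0.77). Without replicate C of ZT6 and of ZT18, these values were between 0.77 and 0.97.

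Of the 12 other GABA-A subunit genes, 9 passed the filter on low counts, and *Gabra6*, *Gabrp* and *Gabrr3* had at most 11 reads each over all 18 replicates. The time test called 5 of the 9 (44% of all genes), and 2 of the 9 counted as cycling (29.9% of all genes), *Gabrd* among them. *Gabrd* encodes delta, the usual partner of alpha 4, and its CPM was 65.5, 58.1 and 49.3 at ZT14 and 37.3, 26.6 and 26.8 at ZT18, above all other replicates (adjusted p = 0.000476 by edgeR). The highest of those others, ZT10 replicate C, had 26.5 CPM, only just below replicates B and C of ZT18. At ZT22 and ZT2, where *Gabra4* was also high, *Gabrd* had between 3.23 and 7.49 CPM. *Gabrg3*, which encodes gamma 3, had 42.2 ± 9.4 CPM at ZT22 and 90.8 ± 2.0 at ZT6 (0.00458). *Gabre*, *Gabrq*, *Gabrr1* and *Gabrr2* did not pass the test.

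Of 14 genes for anchoring and trafficking of the receptor, the time test called 10 and 8 counted as cycling, beside 44% and 29.9% of all genes. The 4 with the smallest p were *Clptm1*, which limits receptor exit from the endoplasmic reticulum, *Nsf*, an ATPase of membrane fusion, *Nlgn2*, an adhesion protein of inhibitory synapses, and *Gphn*, whose product gephyrin anchors synaptic receptors. *Clptm1* had 14.7 ± 1.3 CPM at ZT2 and 18.3 ± 2.1 at ZT22 against 78.8 ± 9.2 to 90.9 ± 10.3 at the other timepoints (adjusted p = 1.91e-08 by edgeR), the same low timepoints as *Gabrb1*. *Nlgn2* was also lowest at ZT22 (46.6 ± 2.6 CPM) and ZT2 (49.2 ± 15.2) and highest at ZT6 (126.6 ± 3.3, 1.59e-05). *Nsf* was highest at ZT22 (1474 ± 260 CPM) and lowest at ZT6 (307 ± 59, 5.12e-07). *Gphn* was highest at ZT22 (134.6 ± 8.8 CPM) and lowest at ZT10 (49.7 ± 10.3, 3.45e-05). *Gabra2* also had its highest mean at ZT22 and was low at ZT6 and ZT10. Of all genes tested, 17.5% rose and 16.3% fell from ZT2 to ZT6, and 11.9% fell and 6.27% rose from ZT18 to ZT22 (edgeR). Of 10 genes for GABA synthesis, transport, GABA-B receptors and chloride transport, 7 were called and 6 counted as cycling, beside the same shares of all genes. From ZT2 to ZT6, the median log2 difference was -1.64 over the 7 genes, -0.86 over the 9 other subunits and -0.17 over the 14 partners. It was 0.64 over the 10 genes for GABA synthesis, transport, GABA-B receptors and chloride transport, and -0.03 over all genes tested.

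Marker levels of cell types varied over the same timepoints, and members of a list did not all go 1 way. Beside the counts of markers given below, the time test called 44% of all genes tested. From ZT2 to ZT6, 16.3% of all genes fell and 17.5% rose (edgeR). In bulk tissue, fewer cells of a type and less RNA per cell cannot be told apart. The summed CPM of 6 general neuronal markers (5 called in the time test) was between 3186 and 4305 at ZT6 and between 6428 and 8314 at ZT2 and ZT22. *Snap25* made up most of that sum, and from ZT2 to ZT6 it fell with *Stmn2* and *Elavl4*, while *Rbfox3* rose (edgeR). Astrocyte markers (6 of 6 called) summed to between 1640 and 2303 CPM at ZT6 and ZT10 and to between 3557 and 5234 at ZT22 and ZT2, and 5 of the 6 fell from ZT2 to ZT6. The 5 microglial markers (all called) summed to between 64.9 and 161 CPM at ZT6 and between 192 and 222 at ZT2. Of these, *Cx3cr1* and *P2ry12* fell from ZT2 to ZT6, *C1qa* rose and the other 2 did not pass. Oligodendrocyte markers (5 of 5 called) summed to between 1151 CPM at ZT6 and 5483 at ZT14, and from ZT2 to ZT6 3 fell and *Mag* rose. The 9 markers of SCN neurons (8 called) had their highest sum at ZT6 (4998 to 5581 CPM) and their lowest at ZT14 (1577 to 2157), and *Vip* was the most abundant of them. From ZT2 to ZT6 *Avp*, *Grp*, *Six6* and *Rgs16* rose and *Rorb* fell.

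The r of *Gabrb2* over the 18 replicates was 0.94 with the microglial sum, 0.81 with the neuronal sum and 0.66 with the astrocyte sum. Within timepoints it was 0.91, 0.63 and 0.19. Without replicate C of ZT6 and of ZT18 it was 0.91, 0.90 and 0.91, and within timepoints 0.50, 0.42 and 0.62. *Gabra4* had 0.91 with the microglial, 0.76 with the neuronal and 0.695 with the astrocyte sum (0.85, 0.76 and 0.75 without the same replicates), and *Gabra2* had 0.78, 0.90 and 0.82. *Gabrb1* had -0.42, -0.67 and -0.67 with these sums. Within timepoints *Gabrb1* had 0.30, 0.40 and 0.46 with them (-0.35, 0.28 and 0.49 without the same replicates). *Gabra4* had 0.90, 0.64 and 0.35 within timepoints, and *Gabra2* had 0.27, 0.11 and 0.08. *Gabrg1* had 0.26, 0.44 and 0.70 with the microglial, neuronal and astrocyte sums, and *Gabra3* had 0.54, 0.71 and 0.51. With the sum of SCN neuron markers *Gabra4* had -0.78, *Gabrb2* -0.55, *Gabrb1* -0.07 and *Gabrg1* 0.13. Within timepoints these values were -0.20, -0.14, 0.38 and 0.66. The 5 markers of telencephalic excitatory neurons (3 called) stayed between 16.3 and 17.6 CPM at ZT6 and reached 195 at ZT14 and 217 at ZT22. The 5 endothelial markers (3 called) and the 7 of neighbouring hypothalamic neurons (3 called) summed to between 107 and 276 CPM and between 17.1 and 87.9 CPM. Beside these counts of called markers, the time test called 44% of all genes. No list had a marker at 0 in all replicates of a timepoint. The part of these cell types in the subunit levels was not tested.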

How the data were processed

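RNA of laser-captured SCN was amplified (SMARTer) and sequenced by the authors, who aligned reads to mm10 with GSNAP, counted them per Ensembl gene with HTSeq (0.5.4p1) and deposited whole-number counts without normalization, in 1 column per replicate. The second deposited table holds signal, normalized read counts (DESeq2, per the study's methods). All values in it (100%) were whole multiples of 1 step within a tolerance of 0.1, so whole reads were recovered as an alternative. These equalled the counts for 94.7% to 96.3% of 26118 shared genes at ZT2, ZT14, ZT18 and ZT22, but for 36.8% to 47.1% at ZT6 and ZT10, so at those timepoints the tables rest on different read counts. The count table's header has no name for the identifier column and was read as naming the 18 columns after it. Of the 36 columns, 0 were left unused.

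edgeR 4.0.16 (R 4.3.3) gave TMM CPM, the F-test and the contrasts from 1 fit, with no batch term. SE is the log2 difference over the square root of F. JTK_CYCLE was rewritten in Python 3.11.15 (period 24 hr, 6 lags, exact null, Bonferroni over lags, p below 0.05). Correlations used log2 CPM (prior count 2). Shares used counts per kb of exon (GENCODE M21) and exact permutation tests, adjusted over 12 tests. DESeq2 1.42.0 and limma 3.58.1 (cosinor) were alternatives. The scripts that compute these tests were tested on simulated data.

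The 7 genes, the lists and the tests were chosen with earlier results of these data known. Named were all 7 genes, some other subunits (the rest are not reported here), the 4 partners with the smallest time test p, and the 3 genes most like each gene.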

Additional observations from a re-analysis of the deposited data

How the results depend on the processing

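Under the alternatives, no called difference of the 7 genes or of their mix changed direction. The time test called between 5 and 7 genes (7 with upper-quartile normalization, without a filter and with DESeq2) and between 5 and 6 when single replicates were left out, cycling between 3 and 5, and light against dark between 2 and 3. With at least 10 counts required in every replicate, *Gabrb2* was not tested (6 reads in ZT6 replicate C). Under that filter 4 of the 5 main calls of the time test were kept, and *Gabra3* was called. For ZT14 and ZT22 against ZT18 and ZT2, 1 gene was called in place of 0 (*Gabrg1*) with the filter of 10 counts, without a filter, and with DESeq2, and leaving out single replicates gave 0 to 1 (1 without ZT6 replicate C). From ZT14 to ZT18 DESeq2 called 1 gene, and from ZT10 to ZT14 leaving out single replicates gave 1 to 3 genes. The test over time of the *Gabra2* share passed with the longest transcript's length (10.7 points, adjusted p = 0.04729) and the recovered reads (9.79 points, 0.02481), and ranged from 8.74 to 11.03 points when single replicates were left out, passing without ZT2 replicate A, ZT6 replicate B, or any replicate of ZT10 (adjusted p between 0.02053 and 0.04598). With all subunit genes of a class in the sum, the difference over time was 22.9 in place of 70.4 points for the *Gabrb1* share, 6.47 in place of 9.79 for *Gabra2* and 12.0 in place of 18.1 for *Gabra5*, on the same side of the threshold. Leaving out single replicates gave 12.3 to 23.7 points for the *Gabra3* share, which passed without ZT18 replicate B, 12.5 to 26.2 points for *Gabra5*, which passed without ZT6 replicate A, and 1.08 to 1.44 for the log2 ratio of *Gabrg1* to the alpha sum. The cause of these changes was not tested. Without ZT6 replicate C and ZT18 replicate C, an alternative chosen after seeing the data, the 12 tests of the mix kept their side of the threshold. The ratios of highest to lowest timepoint mean under left-out replicates, also chosen after seeing the data, were 1.79 to 15.8 over the 7 genes. Upper-quartile normalization moved the median log2 difference of all genes by -0.15 from ZT10 to ZT14 and by 0.15 from ZT18 to ZT22.

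Same-lettered replicates of different timepoints did not deviate together (median r of -0.003 over 45 pairs, -0.19 to 0.10, and 6 of 18 replicates were closest to their own letter), so the letters were not taken to pair samples. With a replicate block the counts of genes called stayed at 5 (time test), 4 (cycling), 3 (light against dark), 6 (ZT2 to ZT6) and 2 (ZT10 to ZT14 and ZT18 to ZT22), and the *Gabra2* share passed (9.79 points, adjusted p = 0.02569). Nothing says that replicates of a timepoint were captured on separate days, so p-values measure the spread between pools of mice and their amplification. Reads per gene and replicate ranged from 6 to 7671, with few reads in the lowest values named. Counting error was not compared with that spread.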
